A study of Mus musculus with 8 samples.

Results

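The comparison described here is of cortex from mice lacking Tet1 (KO) with cortex from wild-type mice (WT), 4 of the 8 samples of the series. They were chosen by their titles, WT1, KO1, WT2 and KO2 Cortex. The mice were naive and of a mixed 129 and C57BL6 background, and no age and no description of the Tet1 allele came with the labels used here. RNA came from snap-frozen tissue. WT was labelled with Cy3 and KO with Cy5, and the WT and KO samples of one number were hybridised to one two-colour Agilent array, so the data are 2 cortex arrays. Because no dyes were swapped, genotype and dye cannot be told apart in any value below.

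The Tet1 enzyme converts 5-methylcytosine of DNA into 5-hydroxymethylcytosine, which opens the route of active demethylation. Tet2 and Tet3 catalyse the same reaction, and brain tissue is rich in its product. Genes switched on by neuronal activity, the immediate-early genes, are much studied in this context because some of their promoters lose methylation when neurons fire.

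All values are the log2 values per sample that the authors deposited, and a log2 ratio is KO minus WT within one array. Each gene was read from its brightest probe, and 16479 genes that were well above background in both samples of at least 1 genotype were tested. Spots well above background made up 49.97% and 50.78% in the WT samples and 66.87% and 67.15% in the KO samples, and 2927 tested genes were not well above background in either WT sample against 3 in neither KO sample. The number of arrays limits the precision, and since the labels do not call the replicates separate animals, the p-values reflect the scatter of these samples alone, and that scatter may be technical. All 25 cortical layer markers and all 10 excitatory neuron markers were well above background in all 4 samples. The WT samples differed from each other over whole gene lists: WT2 was lower than WT1 for markers of the choroid plexus, striatal neurons and microglia and for clade A serpins, and higher for immediate-early genes, with counts given beside each list.

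The targeted gene did not pass the test. The 3 Tet1 probes lie on chromosome 10 (mouse build mm9), and they are shown because probes for different parts of a transcript can report a deletion differently. The first 30 of the 60 bases of each are printed, 5′ to 3′.
Tet1 probe at chr10:62274448-62274507: ctgtactcaaataacacacggcttctgttc
Tet1 probe at chr10:62301856-62301915: taatcacatcaacgccgaggtcaggaatgc
Tet1 probe at chr10:62276042-62276101: gaatctacagacttctgtcccctgcaggct
The brightest, at 62274448, read 8.93 in WT1, 8.79 in KO1, 9.11 in WT2 and 8.98 in KO2, so the 2 genotypes overlapped. Its log2 ratio was -0.13 ± 0.06 (SE of the limma fit, n = 2 arrays; adjusted p = 0.257). The probe at 62301856 gave -0.22 and -0.12 on the 2 arrays, and the probe at 62276042, dim in WT (not well above background there), gave 0.18 and 0.09. How the KO allele was made is not stated in the labels, so these probes could not be used as a check of the labels. Tet2 (0.14 ± 0.06, adjusted p = 0.214) did not pass the test either. Tet3 was not well above background in WT and did not pass the test (adjusted p = 0.211). Its brightest probe gave 0.23 and 0.10 on the 2 arrays, a mean of 1.12-fold higher in KO. Its other probes, also dim in WT, disagreed in direction: 1 gave 0.14 and 0.07 on the 2 arrays, and 1 gave -0.18 and -0.23.

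In cortex, 13 genes were called lower and 7 higher in KO at a Benjamini-Hochberg adjusted p under 0.05 in limma, 0.0789% and 0.0425% of the genes tested. The genes called lower encode zinc-finger proteins, a protease inhibitor, a desmosomal plakin, an iron receptor and enzymes of peptide amidation, glycolysis and hyaluronan synthesis. Those called higher encode a microtubule-associated protein, a synaptic vesicle protein, a lipid-cleaving enzyme, a primase subunit, securin and a microglial receptor. In all 20, both KO samples lay on the same side of both WT samples, which held for 36.3% of all tested genes on the higher side and 19.4% on the lower side.

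The gene with the smallest adjusted p was Zfp874a, which encodes a zinc-finger protein. It read 9.43 in WT1 and 9.51 in WT2 against 6.90 in both KO samples, where it was not well above background. It was therefore at least 4.56-fold lower in KO (adjusted p = 0.00139), the bound taking the lowest value among probes well above background in KO as the KO level. Its single probe, at chr13:67541780-67541839 on mm9, starts with the 30 bases shown here.
Zfp874a probe: cctgtacctctgtatctgttgttgtggtat

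Serpina3n, which encodes a secreted serine protease inhibitor made by astrocytes, was also called lower. Its values were 12.01 and 11.22 in WT1 and WT2 and 9.51 and 9.25 in KO1 and KO2. The log2 ratio was -2.24 ± 0.17 (4.72-fold lower, adjusted p = 0.0435), although the WT samples themselves differed. Evpl, which encodes envoplakin, a plakin of desmosomes and the cornified envelope, read 11.12 and 11.11 in WT and 9.21 and 9.01 in KO (-2.01 ± 0.15, adjusted p = 0.0435). Trfr2, now named Tfr2, encodes transferrin receptor 2 and read 10.77 and 10.74 in WT and 9.21 and 9.30 in KO. Its ratio was -1.50 ± 0.06 (adjusted p = 0.0126), and no value of one genotype reached the range of the other.

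Pam encodes the monooxygenase that amidates the ends of neuropeptides. It read 10.93 and 11.17 in WT and 9.63 and 9.70 in KO (-1.38 ± 0.07, adjusted p = 0.0151). Pgam2, the muscle form of phosphoglycerate mutase in glycolysis, read 10.57 and 11.06 in WT and 9.52 and 9.96 in KO. The difference was the same on both arrays (-1.05 and -1.10) while both levels were higher in replicate 2. 3110079O15Rik, now named Snorc, encodes a chondroitin sulfate proteoglycan and fell by 1.06 on the log2 scale (adjusted p = 0.0170).

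Fastkd3, whose product acts on mitochondrial RNA, was lower at both of its probes, by -0.99 and -1.06 at the brighter and by -0.73 and -0.74 at the other. Btg2, an antiproliferative gene that is also induced by neuronal activity, read 11.21 and 11.56 in WT and 10.31 and 10.53 in KO (-0.97 ± 0.06, adjusted p = 0.0256). Has1, which encodes a hyaluronan synthase, fell by 0.95 (adjusted p = 0.0435), from 8.66 and 8.67 to 7.75 and 7.67. The non-coding A430093F15Rik fell by 0.79, Zfp429 by 1.04 and Zfp712 by 0.77.

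Mtap1b, now named Map1b, encodes a microtubule-associated protein of growing axons. It has 2 probes, which disagreed. The brighter, at chr13:100192506-100192565, read 11.47 and 11.56 in WT and 13.42 and 13.47 in KO (1.94 ± 0.08, adjusted p = 0.0126). The other, at chr13:100194409-100194468, gave -0.02 and 0.11 on the 2 arrays. The starts of both are shown because the call rests on the first alone.
Mtap1b probe at 100192506: tctacagagactaaatcttagcgataatcc
Mtap1b probe at 100194409: ccttcctttgtcttgcattggctattttaa

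Sv2c, which encodes a glycoprotein of synaptic vesicles, also depended on the probe. Its brightest probe was not well above background in WT (8.31 and 8.33) and read 9.91 and 10.09 in KO. The log2 ratios were 1.60 and 1.76, a mean of 3.21-fold higher in KO (adjusted p = 0.0149). The probe at 96729701 gave 0.57 and 0.75 and the probe at 96745986 gave -0.12 and -0.19, and neither was well above background in WT.
Sv2c probe at chr13:96729454-96729513: ctgtttctcatccctgggaaacaaatctgt
Sv2c probe at chr13:96729701-96729761: tctttgattaacataaaccattaatccact
Sv2c probe at chr13:96745986-96746045: aatccatgatgataggcatgctgtgcttgt

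Gdpd3, which encodes a lysophospholipase D, was not well above background in WT (8.13 and 8.21) and read 9.30 and 9.69 in KO. Its log2 ratios were 1.17 and 1.48, a mean of 2.504-fold higher in KO (adjusted p = 0.0324). Pttg1 encodes securin, the inhibitor of separase in mitosis, and read 12.81 and 12.88 in WT and 13.60 and 13.67 in KO (0.79 ± 0.06, adjusted p = 0.0403). Its second probe gave only 0.12 and 0.08 and was not well above background in WT. The predicted gene Gm15431 (0.77), Prim2 (0.68), which encodes the large subunit of primase, and Fcrls (0.67), a receptor gene typical of microglia, made up the 7. The ratios of Prim2 and Fcrls were nearly the same on both arrays, 0.69 and 0.67 for Prim2 and 0.67 and 0.67 for Fcrls.

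**Figure D1:**
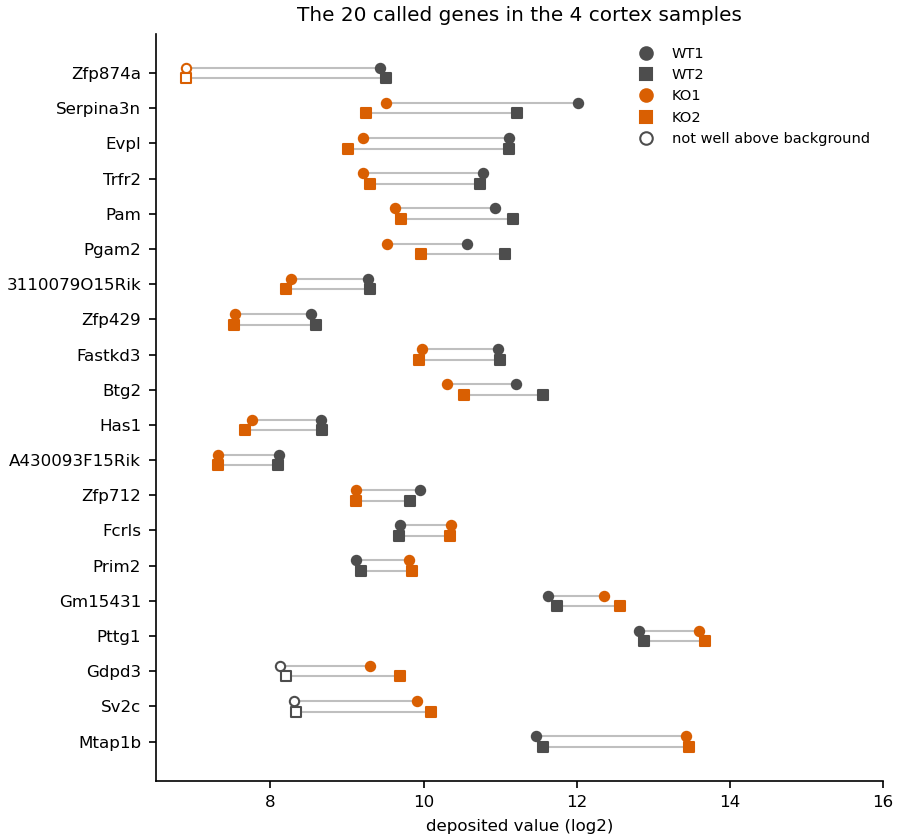
Deposited log2 values of the 20 called genes in the 4 cortex samples, circles for replicate 1 and squares for replicate 2, with WT in grey and KO in orange and a line joining the 2 samples of one array. Zfp874a in KO (6.90) and Gdpd3 and Sv2c in WT are drawn open because they were not well above background, and in every gene both KO samples lie to one side of both WT samples.

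The 20 calls rested on the spread estimated over both tissues. With only the cortex arrays limma called 2 genes higher and 3 lower, all 5 among the 20, and with either cortex array left out it called 0 (1474 genes without cortex replicate 1 and 1403 without cortex replicate 2 at an unadjusted p under 0.05). On loess ratios computed from the scanner signals 2 were called higher and 8 lower, all 10 among the 20, while Feature Extraction's own ratios called 83 higher and 21 lower, 17 of them among the 20; the direction of all 20 was the same in each of these fits. Just inside the threshold lay Fcrls and Zfp712 (adjusted p = 0.0492), and just outside it Rnase4 and Gin1 (0.0501) and Mtrr (0.0539). Rnase4 encodes a secreted ribonuclease and read 10.09 and 10.01 in WT and 11.10 and 11.05 in KO.

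Counted without a test, 7829 genes (47.5%) had a log2 ratio above 0 on both cortex arrays. Below 0 on both were 4313 (26.2%), and 4337 differed in direction between the arrays. Not well above background in either WT sample, and so kept by the filter through KO alone, were 1637 of the 7829 and 595 of the 4313. Among the 13088 genes well above background in all 4 samples, 5999 were higher and 3612 lower on both arrays. The median over all tested genes was 0.04 on array 1 and 0.05 on array 2. Centring each array on its median, which by construction evens out the directions, gave 5926 and 5926. Across genes the 2 arrays had r = 0.518 (Spearman's rho 0.564, n = 16479 genes, which share both arrays' slide and dyes). At 0.5 or more on both arrays there were 63 genes higher and 61 lower. Of the 63, 20 were not well above background in either WT sample and passed the filter through KO alone. Among the 61, Zfp874a and Serpina3i were not well above background in either KO sample and passed it through WT alone.

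At least 2-fold on both arrays, 6 genes were higher (0.0364%) and 9 lower (0.0546%). Beside 7 of the genes called lower, the 9 included Npas4 and Prune2. Npas4, the activity-dependent transcription factor of neurons, read 13.53 and 13.39 in WT and 11.89 and 12.02 in KO, a ratio of -1.51 ± 0.15 that missed the threshold (adjusted p = 0.0695). Prune2 read 9.36 and 10.18 in WT and 8.30 and 8.33 in KO (-1.45 ± 0.21, adjusted p = 0.0904), and its other 3 probes, all dim in WT, gave 0.30 and 0.59, -0.51 and -0.77, and -0.11 and 0.33.

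Beside Mtap1b, Sv2c and Gdpd3, the 6 higher genes were Rnase4, Spry2 and Ttr. Spry2, whose product restrains signalling by growth factor receptors, was not well above background in WT. Its log2 ratios were 1.02 and 1.32, a mean of 2.25-fold higher in KO (adjusted p = 0.0755). Ttr, which encodes the thyroid hormone carrier transthyretin that the choroid plexus secretes, read 16.22 in WT1, 17.26 in KO1, 12.06 in WT2 and 16.62 in KO2. WT2 was far below the other 3 samples, the ratios were 1.04 and 4.57, and the gene did not pass the test (adjusted p = 0.276). Among genes well above background in all 4 samples, Thbs4, a thrombospondin, had -1.75 and -0.96, Erdr1 1.03 and 0.72, Grin3a, an NMDA receptor subunit, 0.67 and 0.78, and 8430408G22Rik 0.94 and 0.67. None of these 4 passed the test (adjusted p = 0.0825 to 0.156).

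**Figure D2:**
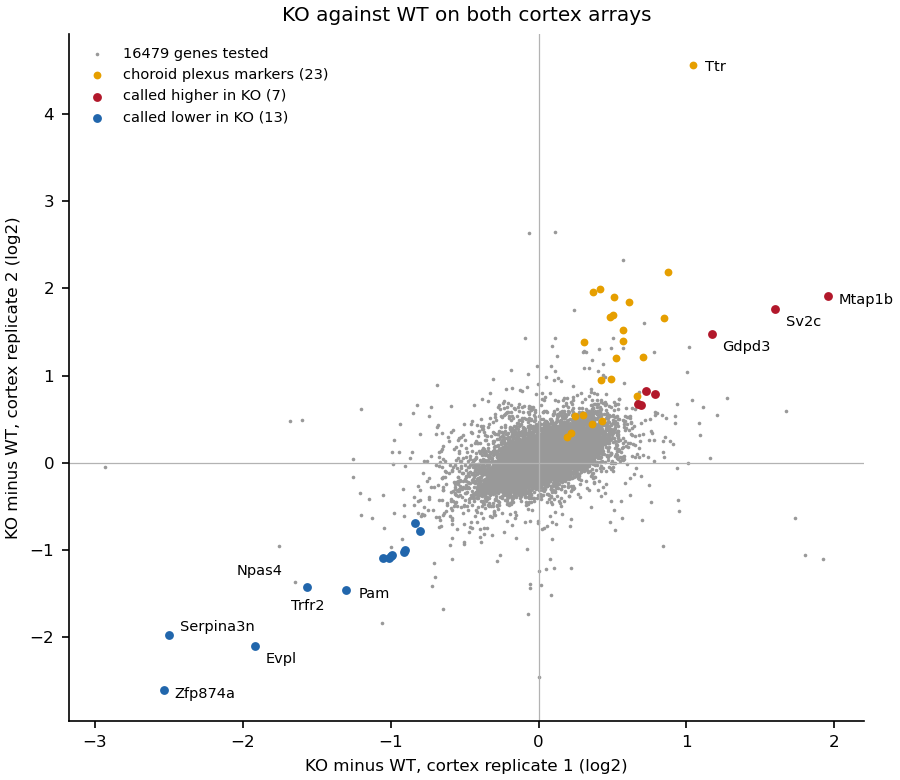
Log2 ratio of KO over WT on cortex array 1 (x axis) and array 2 (y axis) for the 16479 genes tested, with the 13 genes called lower in blue, the 7 called higher in red and 23 choroid plexus markers in orange. The called genes lie near the diagonal, while the choroid plexus markers lie above it, up to Ttr at 1.04 and 4.57.

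The called genes were not spread evenly over the chromosomes. Chromosome 13 held 6 of the 20 (30%) and 3.82% of the tested genes with a position. Besides Mtap1b and Sv2c these were Zfp712, Zfp429, Zfp874a and Fastkd3, which lie within 1.59 Mb (chr13:67139715-68731156, mm9) in a cluster of zinc-finger genes. The region holds 31 tested genes, of which 15 were lower and 14 higher on both arrays. The 4 called genes were separated by neighbours of either sign: Zfp458 gave -0.43 and -0.54, Zfp87 0.63 and 0.39 and Mtrr, next to Fastkd3, 0.66 and 0.73, each short of the threshold (adjusted p = 0.0539 to 0.0985). These 3 neighbours were picked out after their values were seen. Zinc-finger genes of such clusters are close in sequence, so a probe may also bind transcripts of a neighbour.

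**Figure D3:**
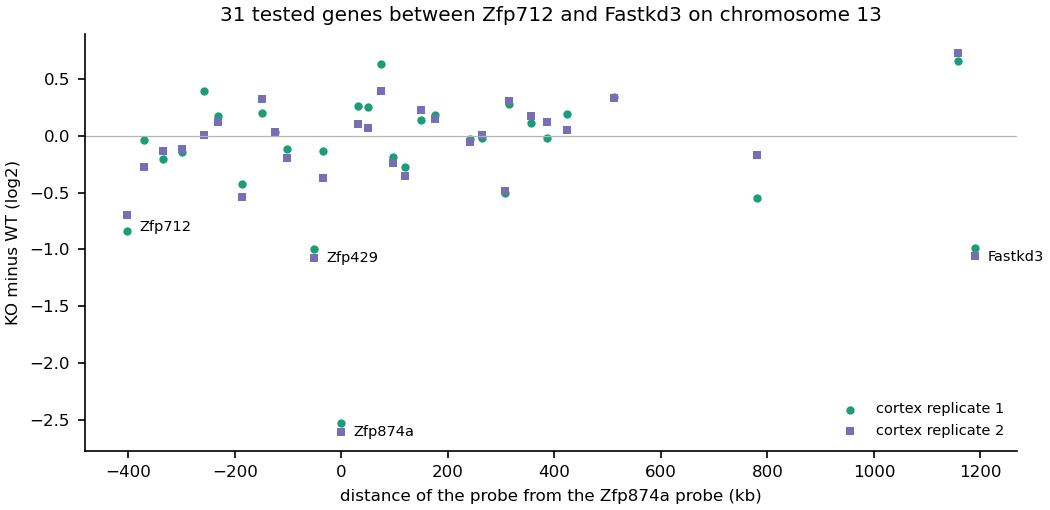
Log2 ratio of KO over WT on cortex array 1 (circles) and array 2 (squares) for the 31 tested genes of the zinc-finger cluster, against the distance of each probe from that of Zfp874a in kb. Both arrays gave nearly the same ratio for each called gene, and genes above and below 0 are interspersed.

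Promoter windows from RefSeq (GRCm38.p6, 250 bases before to 50 after the start) were available for 11 of the 13 genes called lower and 5 of the 7 called higher. The count of CpG dinucleotides had a median of 10 in the genes called lower, 20 in those called higher and 21 in all 11636 tested genes with a window. The cAMP response element TGACGTCA, a palindrome and so the same on both strands, was in a window of 3 of the 11 genes, Btg2, Has1 and Zfp874a, and of 3.35% of all tested genes with a window. The 250 bases before the start of these 3 are shown with the element in capitals.
Btg2 at chr1:134079156-134079405, minus strand: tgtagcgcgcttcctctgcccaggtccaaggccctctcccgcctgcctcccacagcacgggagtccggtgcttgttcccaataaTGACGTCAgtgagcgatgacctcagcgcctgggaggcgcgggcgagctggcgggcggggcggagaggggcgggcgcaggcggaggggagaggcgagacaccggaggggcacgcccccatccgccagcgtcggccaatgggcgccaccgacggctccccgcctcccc
Has1 at chr17:17855189-17855438, minus strand: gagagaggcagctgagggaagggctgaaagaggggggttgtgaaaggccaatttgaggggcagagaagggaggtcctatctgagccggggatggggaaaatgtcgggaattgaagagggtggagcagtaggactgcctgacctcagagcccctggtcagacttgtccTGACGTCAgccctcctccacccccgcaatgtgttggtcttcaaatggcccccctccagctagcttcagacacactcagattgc
Zfp874a at chr13:67451625-67451874, minus strand: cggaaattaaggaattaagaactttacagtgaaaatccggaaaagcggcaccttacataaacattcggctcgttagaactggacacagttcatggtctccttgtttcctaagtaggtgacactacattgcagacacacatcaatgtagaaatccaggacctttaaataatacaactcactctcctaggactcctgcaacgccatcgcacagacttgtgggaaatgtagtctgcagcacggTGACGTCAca
The element begins 166 bases before the start in Btg2, 83 in Has1 and 10 in Zfp874a. The half-site TGACG or its complement CGTCA is contained in the full element. It was in a window of 17 of 22 immediate-early genes and of 33.2% of all. Among called genes it was in a window of 5 of the 11 lower and 0 of the 5 higher. The full element was in a window of 2 of the 22 immediate-early genes and 0 of the 5 genes called higher. A match describes these letters and not a bound site.

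Immediate-early transcription regulators, the first genes transcribed when neurons fire, were lower on both arrays in 10 of 26 tested members and higher in 3, against 26.2% and 47.5% of all genes. Btg2 was the member called. The list's median was 0.08 on array 1 and -0.26 on array 2 (0.04 and 0.05 for all genes). The 2 WT samples differed: 24 of the 26 genes were higher in WT2 than in WT1, and the mean level was 11.26 in WT1, 11.63 in WT2, 11.26 in KO1 and 11.24 in KO2.

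Single members showed that pattern. Fos, a subunit of the AP-1 transcription factor, read 11.34 in WT1 and 12.01 in WT2 against 11.06 and 10.88 in KO, ratios of -0.28 and -1.13 (adjusted p = 0.156). Egr2 gave 0.09 and -0.88 and Egr4 -0.01 and -0.69, and Nr4a2, an orphan nuclear receptor, 0.04 and -0.21. Npas4, by contrast, was at -1.65 on array 1 and -1.37 on array 2, and Ier2 at -0.30 and -0.60. Ier5 (0.32 and 0.16) and Nfil3 (0.41 and 0.08) were on the other side of 0. None of these but Btg2 passed the test.

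Among effectors induced by activity, 18 of 36 were higher and 10 lower on both arrays. Arc, a regulator of AMPA receptor trafficking, read 15.17 and 15.97 in WT and 14.91 and 14.90 in KO (-0.26 and -1.07, adjusted p = 0.170). Cyr61, a matrix protein, had -0.72 and -1.42, while the neurotrophin Bdnf had 0.62 and 0.23 (adjusted p = 0.130) and the kinase Sgk1 0.84 and 0.24. No member was called. Of 18 neurotrophins and their receptors 12 were higher and 4 lower.

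The enzymes of DNA demethylation and methylation stayed close to 0 as groups. Of 17 TET and demethylation genes 6 were higher and 5 lower on both arrays, with medians of 0.06 and -0.02 and 0 called. Gadd45g, a stress-induced gene linked to demethylation, read 13.80 and 13.87 in WT and 13.11 and 13.25 in KO (-0.66 ± 0.06, adjusted p = 0.0652). Its KO values both lay below both WT values, as in 19.4% of all genes. Ung, the uracil glycosylase of base excision repair, gave 0.33 and 0.49 and Apobec3 0.15 and 0.29. Of 13 methyltransferases and methyl-CpG readers 4 were higher and 5 lower, with medians of -0.03 and -0.02, and Mbd3, a subunit of the NuRD complex, had -0.16 and -0.14. Dnmt3l, a cofactor of the methyltransferases, was not well above background in WT, and its bound over both arrays was 1.01-fold higher in KO. Among these groups the members just named had adjusted p = 0.0652 to 0.190.

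Germline genes that promoter methylation silences in somatic tissue passed the filter on dim probes in 8 of 24 cases, so these counts speak only for those 8. Of them 5 were higher and 1 lower on both arrays and 0 were called. Only 5 of the 8 were well above background in all 4 samples. Nxf3 was not in either WT sample (7.10 and 7.25, against 7.54 and 7.57 in KO) and is given no fold, and the RNA helicase gene Ddx4 had -0.22 and -0.67. Of 31 imprinted genes, which are expressed from 1 parental allele, 22 were higher and 1 was lower on both arrays (medians 0.10 and 0.17, 0 called). Among the higher were Igf2 (0.43 and 0.47), Dlk1 (0.34 and 0.40) and Dcn (0.57 and 0.29), and the lower one was Ndn (-0.27 and -0.48). Igf2 and Dcn also stand on the lists of choroid plexus or leptomeningeal markers, which were higher in KO as described with them.

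Clade A serpins, the family of Serpina3n, were lower on both arrays in 7 of the 8 members that passed the filter, of 19 listed. Only 3 of the 8 were well above background in all 4 samples. Serpina3i was at least 1.66-fold lower in KO (adjusted p = 0.150). Serpina1a, an antitrypsin gene, read 8.88 in WT1, 7.86 in WT2, 7.67 in KO1 and 7.51 in KO2, so its difference was large on the array of WT1 alone, and it was not well above background in WT2. Serpina3b, the one on the other side of 0, was not well above background in either WT sample and is given no fold. All but 1 of the 8 were higher in WT1 than in WT2, by a median of 0.71, and members of this family are close enough in sequence that probes may share targets.

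Iron handling genes were split. Beside Trfr2, the classical transferrin receptor gene Tfrc had -0.41 and -0.24 (adjusted p = 0.117), and 4 of 18 were lower and 9 higher on both arrays. Bmp6, an inducer of hepcidin, had 0.44 and 0.44. Neuropeptides and their processing enzymes, the list that holds Pam, were higher on both arrays in 15 of 28 and lower in 8. These shares (53.6% and 28.6%) were also near those of all genes. Crhbp, which encodes the binding protein of corticotropin-releasing hormone, had 0.58 and 0.48, Chgb, a granin of dense-core vesicles, 0.49 and 0.39, and Nts, which encodes neurotensin, -0.45 and -0.75 (adjusted p = 0.0898 to 0.0912).

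Synaptic vesicle genes, the list that holds Sv2c, were higher in 18 of 30 and lower in 4, against 47.5% and 26.2% of all genes. Syt1, the calcium sensor of release, had 0.30 and 0.37, Syn2 0.33 and 0.30, the SNARE gene Vamp2 -0.40 and -0.37 and Syt5 -0.19 and -0.18, none of them called. Microtubule-associated proteins and tubulins, the list of Mtap1b, were higher in 9 of 20 and lower in 3, among them Tubb2a (0.39 and 0.30) and Mtap2, now Map2, a marker of dendrites (-0.53 and -0.29). Potassium channels were higher in 20 of 33 and lower in 6, with Kcnj16 at -0.21 and -0.29 and Kcna4 at 0.26 and 0.45. Of 22 glutamate receptor subunits 12 were higher and 5 lower, with Gria4 at 0.26 and 0.27 and Grin2c at -0.34 and -0.23. Apart from Mtap1b and Sv2c no member of these 4 lists was called. The medians of each of the 4 lay between 0.02 and 0.13 on either array.

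Cytosolic ribosomal protein genes were lower on both arrays in 29 of 52 and higher in 17, with medians of -0.05 and -0.02. Rps18 read 15.49 and 15.46 in WT and 15.10 and 15.09 in KO (-0.38 ± 0.07, adjusted p = 0.100), and Rpl13 gave -0.35 and -0.33 (adjusted p = 0.114). In both genes the replicates of a genotype were closer to each other than to the other genotype.

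**Figure D4:**
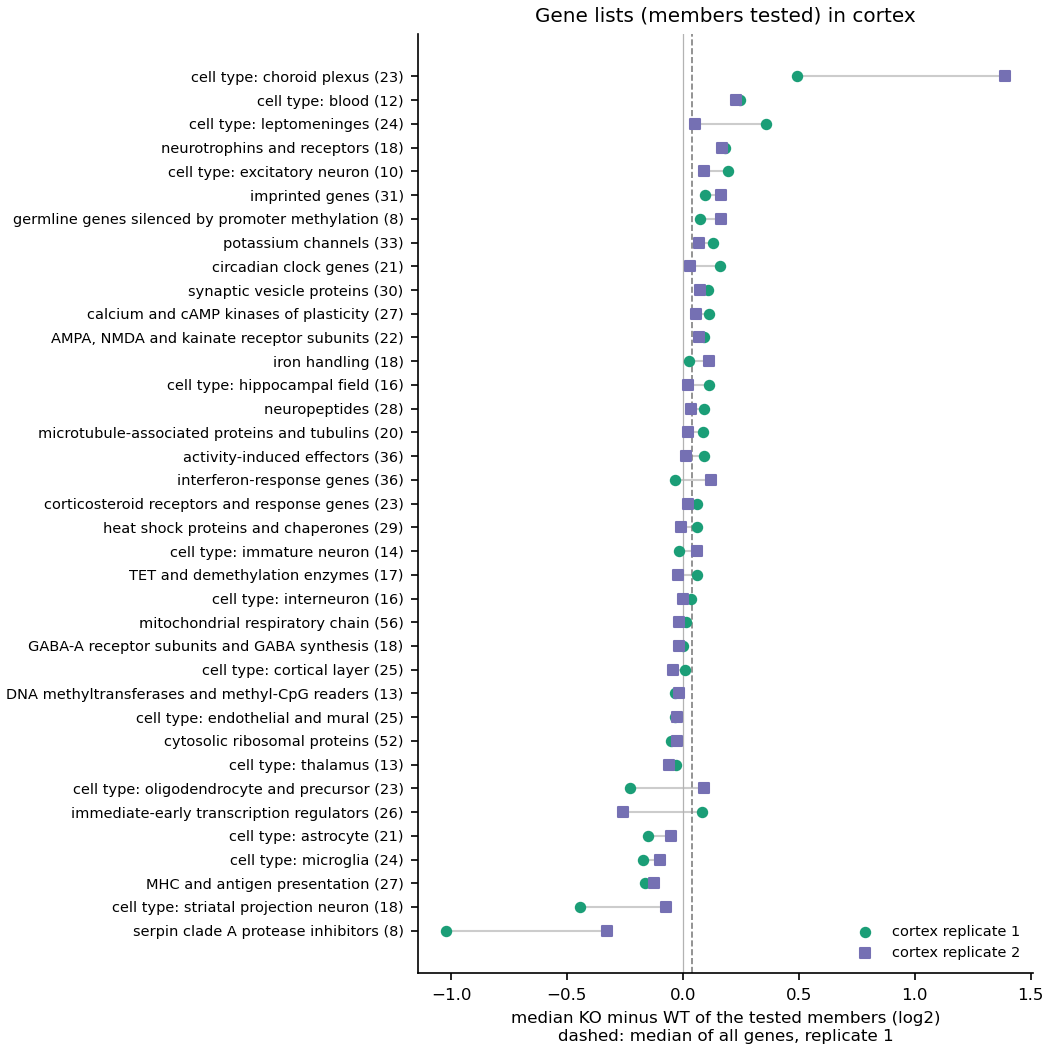
Median log2 ratio of KO over WT of the tested members of 37 gene lists on cortex array 1 (circles) and array 2 (squares), with the number tested in brackets and the all-gene median of array 1 as a dashed line. For 30 lists both medians lie within 0.2 of 0, and the 2 most distant are the choroid plexus markers (0.49 and 1.39) and the clade A serpins (-1.02 and -0.33).

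Microglial markers, which measure the resident immune cells of the brain, were lower on both arrays in 17 of 24 and higher in 4. In bulk tissue fewer cells of a type and less RNA per cell cannot be told apart. Ly86 read 12.59 and 12.33 in WT and 11.84 and 11.78 in KO (-0.64 ± 0.07, adjusted p = 0.0774), while C1qa (-0.55 ± 0.07) and C1qb (-0.51 ± 0.07), which encode chains of complement C1q, missed the threshold too (adjusted p = 0.0898 and 0.0904). In these 3 both KO samples lay below both WT samples, as in 11 of the 24 markers and 19.4% of all genes. Both KO samples lay above both WT samples in 2 of the 24 and in 36.3% of all genes. The median of the list was -0.17 and -0.10, while Fcrls was called higher and the integrin gene Itgam had 0.04 and 0.22, so the markers did not move one way. Of the 24, 20 were higher in WT1 than in WT2.

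Genes of the major histocompatibility complex and antigen presentation were lower on both arrays in 16 of 27 and higher in 8 (medians -0.16 and -0.13, 0 called). The 16 were also the ones in which both KO samples lay below both WT samples, against 19.4% of all genes. The class I genes H2-K1 (12.35 and 12.28 in WT, 11.89 and 11.95 in KO), H2-Q2 (-0.41 and -0.31) and H2-Q7 (-0.30 and -0.30) were among them. The class II gene H2-Ab1 had 0.50 and 0.36. Adjusted p-values of these 4 were 0.113 to 0.219, and class I genes are near-identical copies whose probes may share targets.

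Markers of striatal projection neurons were lower on both arrays in 11 of 18 and higher in 0, with medians of -0.44 and -0.07. Drd1a, the dopamine D1 receptor gene, read 10.85 and 10.66 in WT and 10.11 and 10.25 in KO (-0.58 ± 0.12, adjusted p = 0.117). Tac1, the substance P precursor, gave -0.53 and -0.37. Of the 18, 17 were higher in WT1 than in WT2, and the mean level of the list was 13.05 in WT1, 12.81 in WT2, 12.65 in KO1 and 12.72 in KO2. The part of this difference in the other results was not tested.

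Choroid plexus markers, which label the epithelium that makes cerebrospinal fluid, were higher on both arrays in all 23 tested members, with 0 called. Their medians were 0.49 and 1.39. Only 11 of the 23 were well above background in all 4 samples. Kcne2, a potassium channel subunit, read 10.49 in WT1, 11.37 in KO1, 8.39 in WT2 and 10.58 in KO2, and the water channel gene Aqp1 10.39, 11.24, 8.70 and 10.36 in the same order; both were not well above background in WT2. For Aqp1 KO2 lay below WT1, as both genotypes overlapped in 16 of the 23 genes. All 23 were higher in WT1 than in WT2 and higher in KO1 than in KO2, by medians of 1.49 and 0.62. The mean level of the list was 10.80 in WT1, 11.30 in KO1, 9.30 in WT2 and 10.67 in KO2. On the hippocampus arrays the medians of the same genes were -0.000494 and -2.40.

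Also on that list, Calml4 gave 0.71 and 1.21, and Enpp2, which oligodendrocytes also express, read 15.99 in WT1, 16.51 in KO1, 14.83 in WT2 and 16.03 in KO2. Tuba1c, a tubulin gene on none of the lists, was likewise lowest in WT2 (10.46, against 11.56 to 12.35 in the other 3 samples), with ratios of 0.78 and 1.27. On the hippocampus arrays these 3 genes and Ttr, Kcne2 and Aqp1 were lower in KO on array 2 (-2.02 for Tuba1c and -3.99 for Ttr). On hippocampus array 1, Enpp2 had -0.14 and the other 5 lay between 0.02 (Aqp1) and 0.79 (Ttr). Whether choroid plexus tissue differed between the samples was not tested.

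Leptomeningeal markers, of the membranes around the brain, were higher on both arrays in 15 of 24 and lower in 1, with medians of 0.36 and 0.05. Islr had 0.46 and 0.38, the collagen gene Col3a1 0.41 and 0.39, and Nupr1, the lower one, -0.12 and -0.31. Blood markers were higher in 9 of the 12 tested and lower in 2, against 47.5% and 26.2% of all genes. Only 6 of the 12 were well above background in all 4 samples. Among the higher were the haemoglobin genes Hba-a1 (0.92 and 0.46) and Hba-a2 (1.11 and 0.64), whose sequences are nearly identical. None of these was called.

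Markers of other neurons and glia were mixed. Excitatory neuron markers were higher in 7 of 10 and lower in 1 (medians 0.20 and 0.09), and cortical layer markers were higher in 10 of 25 and lower in 10 (0.01 and -0.04). Rorb, a transcription factor of the granular layer, read 12.44 and 12.27 in WT and 12.85 and 12.86 in KO (0.50 ± 0.07, adjusted p = 0.0918). Astrocyte markers were lower in 10 of 21 and higher in 5, with Gfap, the intermediate filament gene of astrocytes, at -0.50 and -0.94 (adjusted p = 0.155). Oligodendrocyte markers differed between the arrays (medians -0.23 and 0.09), and the myelin genes Mal (-0.52 and -0.30) and Mbp (0.39 and 0.33) had opposite signs.

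**Figure D5:**
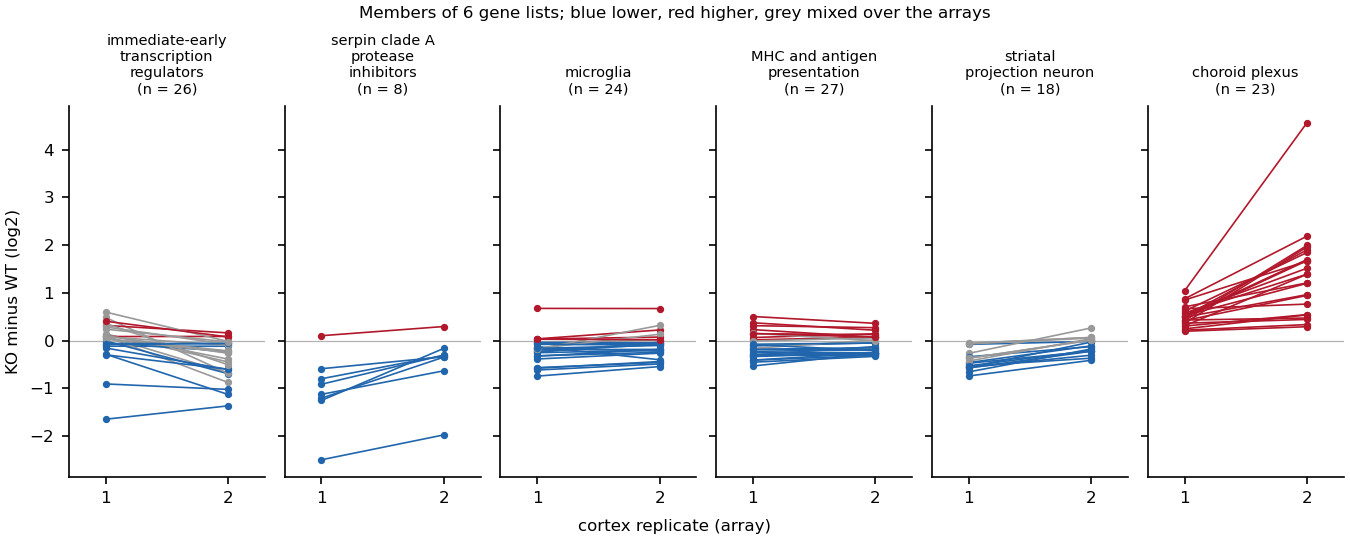
Log2 ratio of KO over WT of each tested member of 6 gene lists on cortex arrays 1 and 2, joined by a line that is blue where the gene was lower on both arrays, red where it was higher on both and grey otherwise. All 23 choroid plexus markers are higher and spread out to 4.57 on array 2, 7 of 8 clade A serpins are lower, and the median of the immediate-early genes goes from 0.08 on array 1 to -0.26 on array 2.

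Set against the hippocampus of the same genotypes, measured on the other 2 arrays, all 13 genes called lower and all 7 called higher in cortex had the same direction on both hippocampus arrays. Among all genes of one direction on both cortex arrays this held for 58.1% of the lower and 66.4% of the higher. Most of those genes changed less than the called ones. Among genes at 0.5 or more on both cortex arrays it held for 56 of 61 lower and 39 of 63 higher. Both tissues shared one estimate of the spread. Zfp874a gave -2.35 and -2.37 there, Trfr2 -1.47 and -1.39 and Mtap1b 1.71 and 1.95, and Npas4 gave -2.25 and -1.70. 3110079O15Rik had -0.42 and -0.39 in hippocampus against -1.01 and -1.10 in cortex. The difference between tissues passed the threshold in limma for 0 genes (601 at an unadjusted p under 0.05), so no called gene was shown to be particular to cortex. The labels do not say whether cortex and hippocampus of one number come from one animal.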

How the data were processed

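Total RNA of the cortex samples was labelled and hybridised to 2 two-colour arrays, all on one slide and in one scan per the file headers. The spot intensities were deposited as Feature Extraction 10.1.1.1 output, with log10 ratios that Feature Extraction had background-subtracted and dye-normalized per the file headers. The log2 values per sample were deposited by the authors as a table; limma is named in the submitters' processing notes without a role. Ratios of these log2 values correlated with loess ratios made from the scanner signals (r = 0.940 to 0.968 over the cortex and hippocampus arrays). With Feature Extraction's own ratios r was lower, 0.637 to 0.706. Their scale is taken as normalized within arrays, which these correlations alone cannot show. The means of both channels, sorted by size, differed from those of cortex array 1 by at most 1.401e-05 on any other array. Their median was 8.231 on every array. The channel means had therefore been brought to a common distribution between arrays. Which methods were used is not given in the sources used here. Flags for spots above background and outlying spots are those of the deposited files.

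From these, control spots and outlying spots were left out, spots of a probe were averaged, and KO minus WT was taken per array from the brightest probe of each gene name. Differences were fitted with limma 3.58.1 in R 4.3.3 (lmFit, eBayes) over all 4 arrays with 1 mean per tissue, leaving 2 residual degrees of freedom, and adjusted by Benjamini-Hochberg over 16479 genes at 0.05. The ± values are standard errors of that fit. Samples of one number share an array, which pairs them (their deviations from the group means had r = 0.559), so the ratio is itself the paired value. Where a gene was not well above background in both samples of a genotype, the fold is a bound and is open to dye bias. It sets the other genotype's mean against the higher, per array, of the probe's own value and the lowest among probes well above background. The bound is a mean over both arrays, so 1 array can lie below it. For Tet3, Sv2c, Gdpd3 and Spry2 the WT readings lay above that lowest value, so the bound equals the mean fold.

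Genes were named by a rule: up to 15 called genes per direction, among genes well above background in all 4 samples up to 12 per direction by the smaller of the 2 ratios, and up to 3 per gene list and direction, beside genes fixed by name. Zfp458, Zfp87 and Mtrr were named after their values were seen. The samples, members and lists were chosen with earlier results of these data known. Probe positions are those of mm9 in the file headers; promoter sequences are RefSeq's, on GRCm38.p6. Scripts were tested on simulated data. Alternatives covered the source of the ratios, centring, the filter on dim probes, the rule for probes, the samples in the fit, the pairing and each replicate left out.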

Additional observations from a re-analysis of the deposited data

Results flagged for a closer look

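For 4 gene lists the median log2 ratio lay on one side of 0 on both cortex arrays and on the other side on both hippocampus arrays; the difference between tissues was not tested. Choroid plexus markers had a median that was 2.14 higher in cortex than in hippocampus, but the hippocampus median was -0.000494 on array 1 and -2.40 on array 2, against 0.49 and 1.39 in cortex, so this rests on array 2. Leptomeningeal markers had a median that was 1.08 higher in cortex. Iron handling genes, with hippocampus medians of -0.0057 and -0.17, differed by 0.156, and DNA methyltransferases and methyl-CpG readers by -0.0622.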

How the results depend on the processing

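The 20 called genes kept their direction under every alternative in which they were tested, but the counts did not hold. Against 7 called higher and 13 lower, limma called 2 and 8 on loess ratios, 83 and 21 on Feature Extraction's ratios, 2 and 8 among genes well above background in all 4 samples, 12 and 26 without a filter on dim probes, 2 and 3 from the cortex arrays alone, and 32 and 28 without the replicate block, that is with the pairing by array ignored. Leaving out a replicate gave 0 to 2 higher and 0 to 3 lower. Loess with outlying backgrounds kept, chosen after seeing the data, called 0 and 0 (1680 genes at an unadjusted p under 0.05); the cause was not tested. Genes higher on both arrays, 7829, were then 3794. Genes lower on both, 4313, were then 7117, and were 7322 with no filter, where more genes were tested, and 6345 to 6618 on 1 cortex array. At least 2-fold higher were 12 by loess, 250 by Feature Extraction, 3 after median centring, 3 among genes above background in all samples, 2 with outlying backgrounds kept and 18 to 47 on 1 array. At least 2-fold lower were 18, 65, 2 with outlying backgrounds kept and 22 to 33 on 1 array. Of 1500 pairs of a named gene and a setting, 1341 kept direction and side of the threshold and 4 reversed. The 1341 include uncalled genes that stayed uncalled. In 134 pairs a called gene lost its call, and in 21 an uncalled gene gained one. Egr2 was -0.88 without cortex replicate 1 and 0.088 without cortex replicate 2, and Nr4a2 -0.21 and 0.042. Nr4a2 was 0.069 with all probes averaged, and Tet2 in KO cortex was -0.0014 with outlying backgrounds kept. Of the genes tested, 2927 were not well above background in either WT sample, so a fold given for any of them is a bound, and some have none.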
